A study of Mus musculus and Rattus norvegicus with 28 samples.

Results

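The change of the transcriptome across birth was examined in mouse left ventricular cardiomyocytes, by setting 2 RNA-seq libraries from postnatal day 1 (P1) against 2 from embryonic day 18.5 (E18.5). These 4 libraries are all the mouse RNA-seq libraries with either age label, out of 28 samples in the series, and the genes compared are the 13979 of 55450 annotated genes with at least 1 FPKM (fragments per kilobase of transcript, scaled to the mapped fragments of the library) in at least 2 of the mouse RNA-seq libraries. All 4 came from wild-type C57BL/6 mice of both sexes, with no transgene and no treatment. Ventricular tissue was digested with trypsin and then collagenase, cells that attached to plastic during a short plating were discarded, and a fixed number of cells went into each lysate. Poly-A RNA was sequenced as read pairs of 150 bp with a kit that does not mark strand, so that reads of overlapping genes on opposite strands cannot be told apart. Each age had 2 libraries, and the sources do not say that these came from separate litters, so the p-values measure the spread between these libraries. In bulk RNA, fewer cells of a type and less RNA per cell cannot be told apart.

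Birth moves the heart from a low-oxygen, glucose- and lactate-fed circulation to one with high oxygen, a higher left ventricular load and milk fat as fuel. In rodents, ventricular cardiomyocytes exchange fetal for adult isoforms of the contractile proteins, expand their mitochondria and leave the cell cycle over the first postnatal days. Blood formation, growth factor signals and the supply of thyroid hormone and glucocorticoid change over the same period.

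Aligned reads numbered 29.3 and 34.1 M in the E18.5 libraries and 36.0 and 37.5 M in the P1 libraries. Gene levels below are in FPKM, and pairs of values follow the order of the replicate numbers. Elsewhere, log2 in parentheses is the log2 fold change of P1 over E18.5 on FPKM plus 1, followed by its standard error and by the Benjamini-Hochberg adjusted p of limma. Spearman correlations over the tested genes were 0.968 within E18.5, 0.974 within P1 and 0.859 to 0.892 between the ages. Xist and the Y-linked gene Ddx3y were both above 1 FPKM in all 4 libraries, so each library held RNA of both sexes. The cardiomyocyte label held in every library: Tnnt2, cardiac troponin T, was at 6141 and 7172 at E18.5 and 3662 and 5428 at P1, and all 16 cardiomyocyte identity genes were detected, with a summed level of 31217 and 40500.3 FPKM at E18.5 and 15928 and 25260 at P1. Other cells were present too, since fibroblast, endothelial, smooth muscle, macrophage and epicardial markers were detected at both ages. Globin transcripts took 5.46% and 6.41% of TPM, a unit in which every library has the same total, at E18.5 and 0.00175% and 0.00896% at P1. A set of 7 nuclear pseudogenes that align to the mitochondrial genome over nearly their whole length took 14.3% and 12.4% at E18.5 and 5.90% and 7.43% at P1, while the 13 protein-coding genes of the mitochondrial genome itself were listed at 0 in every library. FPKM is relative to the total of each library, and the centre of the changes depended on the scaling: the median log2 fold change over all genes was 0.15 as deposited, 0.04 with median-of-ratios size factors, 0.38 with TPM and 0.12 with erythroid genes left out of the totals. A range beside a list's median is that of the median with 1 library left out in turn. Log2 fold changes below are as deposited, and 0.15 is the value against which they should be read.

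**Figure D1:**
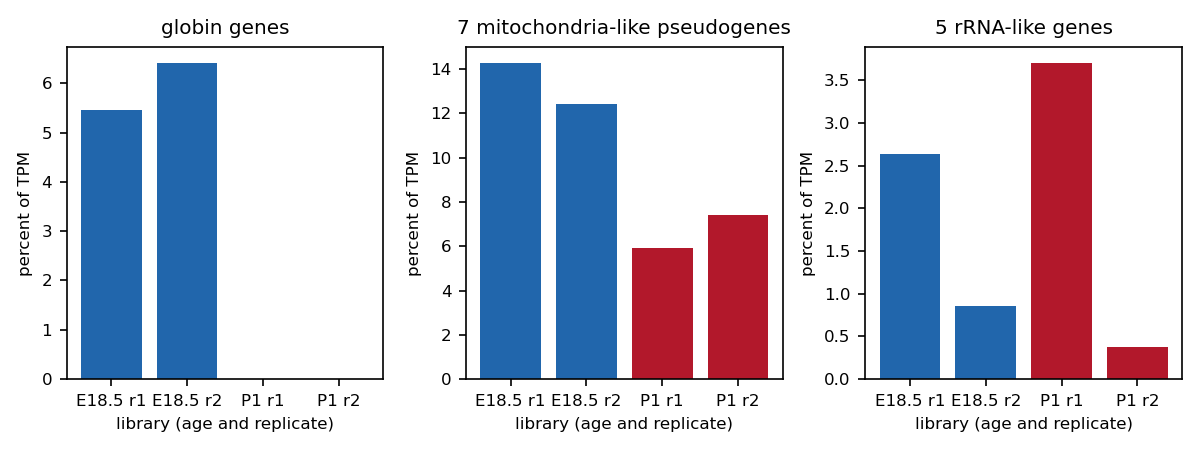
Percent of TPM (y axis) taken in each of the 4 libraries (x axis; E18.5 blue, P1 red) by globin genes, by 7 pseudogenes that match the mitochondrial genome and by 5 genes taken as ribosomal RNA-like. Globin transcripts are visible only in the 2 E18.5 libraries (5.46% and 6.41%), the mitochondria-like share is about 14.3% and 12.4% against 5.90% and 7.43%, and the ribosomal RNA share differs within each age.

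At P1 against E18.5, 2258 genes were called by limma, which is 16.2% of the genes tested. A call required the adjusted p to be below 0.05 and the fold change to exceed 1 in size on the log2 scale. Of these, 1411 were higher at P1 (10.1% of genes tested) and 847 were lower (6.06%). Counts of called genes in the lists below should be read against these shares. Protein-coding genes made up 1357 of the higher and 722 of the lower calls. A log2 change above 3 in size was reached by 57 genes that rose and 35 that fell. Of the genes that rose, 266 had a mean below 1 FPKM at E18.5, and 8 were at 0 in both E18.5 libraries. Of those that fell, 277 had a mean below 1 FPKM at P1, and 14 were at 0 in both P1 libraries. Such genes can pass the filter on low values through the other ages alone. Without the condition on size, 5769 genes passed the p threshold, 3762 of them higher and 2007 lower. The share of higher calls was 62.5% as deposited, 50.7% with median-of-ratios size factors (1115 higher and 1085 lower) and 77.3% with TPM (2568 and 752), so that the balance of directions depended on the scaling.

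**Figure D2:**
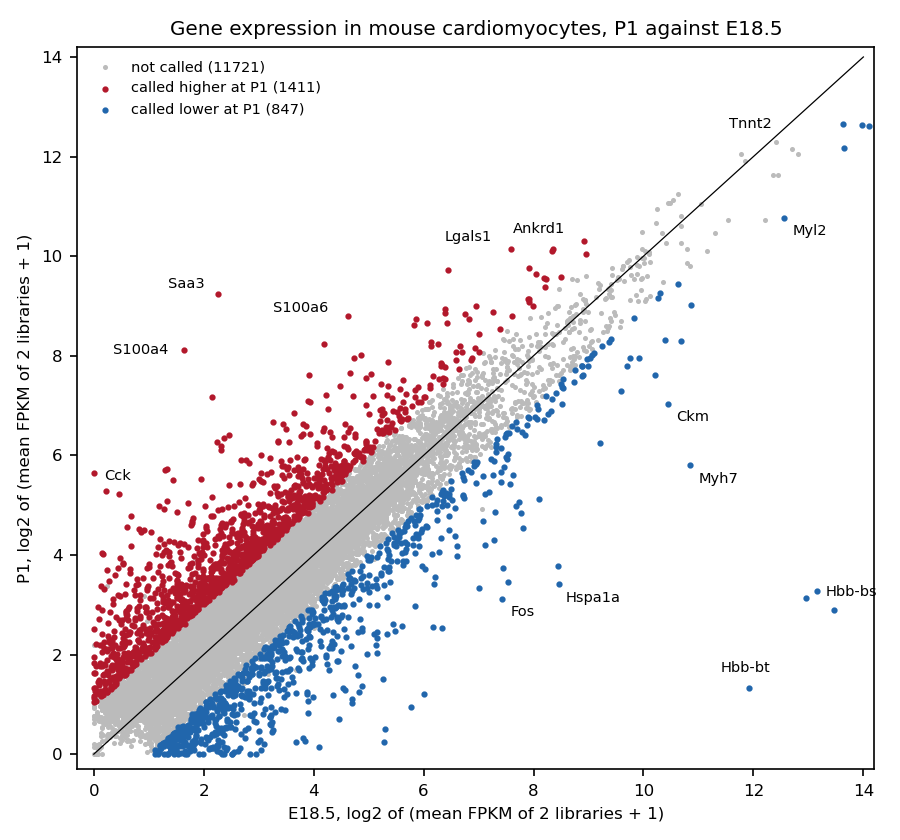
Log2 of the mean FPKM plus 1 of the 2 E18.5 libraries (x axis) against the same for the 2 P1 libraries (y axis), 1 point per tested gene, with 1411 genes called higher in red, 847 called lower in blue and 11721 not called in grey. The line marks equal levels; the 4 adult globin genes lie far below it, Myh7 and Myl2 below it, and Saa3, S100a4 and Cck far above it.

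The largest rises of protein-coding genes were led by secreted acute phase and inflammatory proteins and by small calcium-binding proteins. Saa3, an acute phase apolipoprotein, was at 5.43 and 2.14 at E18.5 and 389.8 and 811 at P1 (log2 6.97 ± 0.41, adjusted p = 4.05e-05). S100a4, a calcium-binding protein of motile and mesenchymal cells, was at 2.19 and 2.07 at E18.5 and 364 and 189 at P1 (log2 6.39 ± 0.26, adjusted p = 1.28e-05). Its relative S100a6 was at 24.5 and 22.7 at E18.5 and 516 and 368 at P1 (log2 4.15 ± 0.16, adjusted p = 1.28e-05). Both S100 genes were at least an order of magnitude higher in each P1 library than in either E18.5 library. Cck, which encodes the peptide hormone cholecystokinin, was listed at 0 in both E18.5 libraries and reached 70.7 and 26.7 at P1. The neutrophil chemokine Cxcl5 stood at 4.47 and 2.43 at E18.5 and 182 and 102.5 at P1 (log2 4.99 ± 0.31, adjusted p = 4.69e-05). The haemoglobin-binding plasma protein haptoglobin (Hp) was at 1.02 and 2.03 at E18.5 and 40.5 and 63.1 at P1 (log2 4.38 ± 0.26, adjusted p = 4.05e-05). The siderophore-binding protein Lcn2 was at 3.19 and 4.32 at E18.5 and 80.0 and 71.3 at P1 (log2 4.02 ± 0.17, adjusted p = 1.29e-05). These 3 genes stayed below 5 FPKM in both E18.5 libraries.

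Among the remaining genes of the 15 largest rises, Col8a1, a short-chain collagen, was at 0.560 and 0.177 at E18.5 and 39.2 and 33.3 at P1 (log2 4.78 ± 0.19, adjusted p = 1.28e-05). Cemip, which degrades hyaluronan, was at 0.703 and 0.352 at E18.5 and 24.3 and 21.1 at P1 (log2 3.96 ± 0.18, adjusted p = 1.86e-05). Tagln, an actin-binding protein of smooth muscle and of activated fibroblasts, was at 15.5 and 18.9 at E18.5 and 355 and 243 at P1 (log2 4.02 ± 0.19, adjusted p = 1.86e-05). It overlaps the antisense gene Gm48529, so part of its reads may belong there. Aldh1a1, a retinaldehyde dehydrogenase, was at 1.27 and 2.16 at E18.5 and 52.7 and 36.2 at P1 (log2 4.06 ± 0.23, adjusted p = 3.66e-05). Hmga2, an architectural chromatin protein best known from embryonic and growing tissues, was at 6.32 and 2.04 at E18.5 and 103.5 and 57.1 at P1 (log2 4.05 ± 0.41, adjusted p = 0.00028). The chemokine Ccl6 was at 0.340 and 0.861 at E18.5 and 14.3 and 38.6 at P1 (log2 3.96 ± 0.51, adjusted p = 0.000832). The other 2 places went to read-through genes, Gm20431 over Ube2v1 and Tmem189, and Gm49450 over Tuba1a and Tuba1b, whose reads are shared with the genes they span. Other named genes overlap a gene on the opposite strand (among them Junb and Prdx2, Trim72 and Gm15533, Rarres2 and Lrrc61, Pfkm and Senp1), and their reads cannot be told apart. Gm20431 was at 2.89 and 0 at E18.5 and 53.2 and 49.2 at P1 and Gm49450 at 25.3 and 0 at E18.5 and 102.6 and 64.1 at P1, and both are uncertain. Gm49450 was not called without P1 replicate 1 (log2 3.66, adjusted p = 0.126) or P1 replicate 2 (log2 4.33, adjusted p = 0.0715), nor with a pseudocount of 0.1 (log2 5.67, adjusted p = 0.0579) or with no filter (adjusted p = 0.117).

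The largest falls were those of the adult globins. Hbb-bs was at 10045 and 12490.5 at E18.5 and 2.80 and 10.03 at P1 (log2 -10.76 ± 0.41, adjusted p = 1.28e-05). Hba-a1 was at 8133 and 10097 at E18.5 and 2.49 and 14.96 at P1 (log2 -10.25 ± 0.61, adjusted p = 4.05e-05). Hbb-bt (log2 -10.70) and Hba-a2 (log2 -10.18) fell alike, but each is a near-identical copy of its neighbour, so the split of reads within each pair is uncertain. Alas2, the erythroid form of the first enzyme of haem synthesis, was at 33.5 and 42.0 at E18.5 and 0.0273 and 0.341 at P1 (log2 -5.04 ± 0.20). Several erythroid genes, such as Alas2, passed the filter on low values only through the E18.5 libraries. No adjusted p is therefore given for Alas2, and no count or median for the list. The embryonic globins Hbb-y and Hba-x were low at E18.5, at 9.30 and 4.25 and at 3.98 and 4.41 FPKM, and were listed at 0 in both P1 libraries. The summed level of the erythroid list was 29069.6 and 35416 FPKM at E18.5 and 15.5 and 51.5 at P1, with no overlap between ages. Tpsb2, a tryptase of mast cells, was at 38.9 and 37.96 at E18.5 and 0 and 0.852 at P1 (log2 -4.86 ± 0.45, adjusted p = 0.000215).

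Behind the globins came a slow myosin, stress chaperones, immediate early genes and a junction protein. Myh7, the slow β-myosin heavy chain that is the main ventricular myosin of fetal rodents, was at 1620.0 and 2078 at E18.5 and 36.6 and 73.9 at P1 (log2 -5.11 ± 0.31, adjusted p = 4.07e-05). Hspa1a, an inducible HSP70 chaperone, was at 221 and 483 at E18.5 and 6.59 and 12.9 at P1 (log2 -4.999 ± 0.38, adjusted p = 9.36e-05). Its near-identical copy Hspa1b was at 217 and 475 at E18.5 and 10.9 and 14.5 at P1 (log2 -4.57 ± 0.34, adjusted p = 8.13e-05). The AP1 subunits Fosb and Fos are described with their family below. The interferon-induced chemokine Cxcl10 was at 195 and 172 at E18.5 and 6.28 and 13.7 at P1 (log2 -4.16 ± 0.39, adjusted p = 0.00022); it overlaps Art3 on the other strand. Rarres2, which encodes the adipokine chemerin, was at 34.5 and 40.6 at E18.5 and 0.932 and 2.73 at P1 (log2 -3.84 ± 0.28, adjusted p = 7.96e-05). Tceal7, which overlaps Bex1 on the other strand, was at 13.1 and 19.2 at E18.5 and 0 and 0.221 at P1 (log2 -3.93 ± 0.21). It passed the filter on low values only through the E18.5 libraries, so no adjusted p is given for it. In each of these genes the lower E18.5 library was far above the higher P1 library, though a lack of overlap was a condition of their choice.

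**Figure D3:**
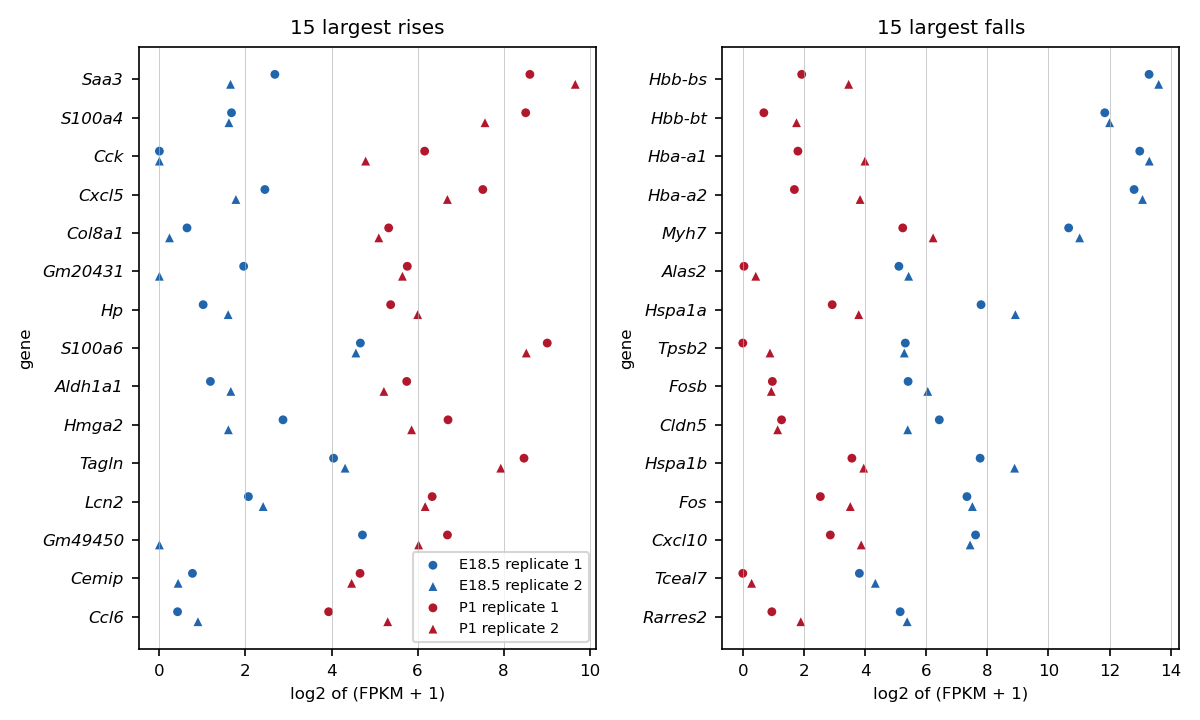
Log2 of FPKM plus 1 (x axis) of each library for the 15 protein-coding genes with the largest called rise (left) and the 15 with the largest called fall (right), with E18.5 in blue, P1 in red, replicate 1 as circles and replicate 2 as triangles. In every gene shown the 2 ages do not overlap, which the choice of genes required, and Gm49450 and Gm20431 have the widest gap between the 2 E18.5 libraries.

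Cldn5, the tight junction protein of endothelium, had the largest fall among endothelial markers, at 85.2 and 41.1 at E18.5 and 1.41 and 1.20 at P1 (log2 -4.71 ± 0.31, adjusted p = 5.48e-05). Of the 12 endothelial markers tested, 3 fell and 1 rose, and 3 rose without E18.5 replicate 1. Kdr, the main VEGF receptor, fell from 28.0 and 13.1 to 4.76 and 6.70 FPKM (log2 -1.603 ± 0.32, adjusted p = 0.00529), von Willebrand factor (Vwf) fell by 1.32 on the log2 scale, and Emcn rose (log2 1.16), a call lost to 0 higher markers without E18.5 replicate 2 (log2 0.90, adjusted p = 0.0455) and without P1 replicate 1 (log2 0.92, adjusted p = 0.0421). The median of the list was -0.48 (-0.91 to -0.037), with a summed level of 511 and 277 FPKM at E18.5 and 329 and 309 at P1, which overlapped, and Pecam1, an adhesion molecule common to all endothelium, was at 77.8 and 41.9 at E18.5 and 43.6 and 37.9 at P1 (log2 -0.48, adjusted p = 0.165). The promoter of Cldn5 held an ATAC-seq peak (a site of open chromatin) in both E18.5 libraries, centred 73 and 69 bp before the start site, and in neither P1 library within 2.5 kb. The promoter is shown because this peak lies inside it: chr16:18776597-18776896, plus strand, RefSeq on GRCm38.p6, from 250 bases before to 50 bases after the start site. Capitals mark CCAAT boxes, letters CCAAT searched on both strands, which reads ATTGG on the strand shown.
Cldn5 promoter: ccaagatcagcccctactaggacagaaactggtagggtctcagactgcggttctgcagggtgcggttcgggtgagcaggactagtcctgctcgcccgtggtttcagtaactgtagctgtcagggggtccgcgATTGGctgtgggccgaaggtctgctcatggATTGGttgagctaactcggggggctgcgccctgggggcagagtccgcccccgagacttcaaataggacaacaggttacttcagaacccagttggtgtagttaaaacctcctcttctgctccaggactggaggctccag

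Contractile genes were called lower in part. Of 13 thick filament genes tested, 0 rose and 3 fell (Myh7, Myl2 and Ttn), where 16.2% of all genes were called. The median log2 fold change of the 13 was -0.72 (-0.99 to -0.37). Myl2, the ventricular regulatory light chain, was at 5267 and 6835 at E18.5 and 1385 and 2091 at P1 (log2 -1.82 ± 0.40, adjusted p = 0.00876), among the 5 most abundant protein-coding genes that fell. Titin (Ttn), the elastic filament of the sarcomere, was at 15.5 and 19.6 at E18.5 and 5.15 and 9.93 at P1 (log2 -1.17 ± 0.30, adjusted p = 0.0165). Without E18.5 replicate 2 or without P1 replicate 1 the thick filament calls dropped from 3 to 1, because Myl2 (log2 -1.63, adjusted p = 0.0666 and log2 -1.52, adjusted p = 0.0551) and Ttn (log2 -1.01, adjusted p = 0.0955 and log2 -0.75, adjusted p = 0.0929) no longer passed. Leaving out the same 2 libraries took the cardiomyocyte identity list (median -0.76, -1.05 to -0.44) from 3 called genes to 1. Myl3, the ventricular essential light chain, was at 4291 and 5148 at E18.5 and 1404 and 1988 at P1 without passing (log2 -1.49, adjusted p = 0.0642). Myl3 was called lower with median-of-ratios size factors (log2 -1.63, adjusted p = 0.0483), with limma-voom (log2 -1.49, adjusted p = 0.0404) and in the fit of only the 4 libraries (log2 -1.49, adjusted p = 0.00599). Myh6, the fast α-myosin heavy chain that replaces Myh7 in postnatal rodent ventricle, was at 1243 and 1548 at E18.5 and 1256 and 3047 at P1, with overlap between ages (log2 0.50, adjusted p = 0.462). Reads of Myh6 and Myh7 can be shared, as the genes are close in sequence.

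In the thin filament, Tnni1, the slow skeletal troponin I of the fetal heart, was at 1456 and 1832 at E18.5 and 251 and 379.5 at P1 (log2 -2.40 ± 0.35, adjusted p = 0.00144). The cardiac form Tnni3 was at 1590.2 and 2089.6 at E18.5 and 761 and 1034 at P1 (log2 -1.04, adjusted p = 0.0716). It was called lower with median-of-ratios size factors (log2 -1.18, adjusted p = 0.0489) and in the fit of only the 4 libraries (log2 -1.04, adjusted p = 0.0175). The difference between the isoforms was not tested. Tnnt1, slow skeletal troponin T, was at 54.9 and 47.6 at E18.5 and 14.9 and 20.1 at P1 (log2 -1.51 ± 0.23, adjusted p = 0.00174), while Tnnt2 was listed above with a log2 fold change of -0.57 (adjusted p = 0.21). Acta1, skeletal α-actin, was at 36.9 and 50.7 at E18.5 and 4.14 and 5.01 at P1 (log2 -2.99 ± 0.25, adjusted p = 0.000141). The cardiac actin Actc1 was at 5864 and 8565 at E18.5 and 3094 and 5347 at P1 (log2 -0.80, adjusted p = 0.124). The tropomyosins Tpm2 (33.1 and 31.0 at E18.5 and 72.7 and 61.0 at P1, log2 1.03 ± 0.14, adjusted p = 0.00105) and Tpm3 (85.6 and 71.5 at E18.5 and 234 and 206 at P1, log2 1.48 ± 0.14, adjusted p = 0.000215) were the 2 genes of the list that rose. The Tpm2 call was lost with limma-voom (log2 0.53, adjusted p = 0.0316), with median-of-ratios size factors (log2 0.89, adjusted p = 0.00237), with erythroid genes left out of the totals (log2 0.998, adjusted p = 0.00123), without E18.5 replicate 2 (log2 0.98, adjusted p = 0.00903) and without P1 replicate 1 (log2 0.91, adjusted p = 0.00816). Over the 13 genes tested the median was -0.80 (-1.06 to -0.41), with 2 higher and 3 lower.

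At the Z-disc, Ankrd1, a stress-responsive titin-associated repressor, was the most abundant protein-coding gene that rose, at 471 and 497 at E18.5 and 1331 and 1179.9 at P1 (log2 1.37 ± 0.20, adjusted p = 0.00139). Csrp3, the muscle LIM protein of the Z-disc, was at 605 and 927 at E18.5 and 129.9 and 182 at P1 (log2 -2.28 ± 0.29, adjusted p = 0.000762), which was the opposite direction. Nexn, which links actin to the Z-disc, was at 129 and 125 at E18.5 and 97.8 and 123 at P1 (log2 -0.21, adjusted p = 0.335). Of 14 genes in this group, with a median of -0.39 (-0.77 to -0.019), 1 rose and 3 fell. The other 2 falls, of Myoz2 (log2 -1.27) and Xirp1 (log2 -1.04), were lost without E18.5 replicate 1 (log2 -1.44, adjusted p = 0.0776 and log2 -0.81, adjusted p = 0.189), E18.5 replicate 2 (log2 -1.10, adjusted p = 0.162 and log2 -1.26, adjusted p = 0.0719) and P1 replicate 1 (log2 -1.03, adjusted p = 0.161 and log2 -0.64, adjusted p = 0.23). That of Myoz2 was also lost without P1 replicate 2 (log2 -1.51, adjusted p = 0.0509). Of 6 genes of the creatine kinase system, which buffers ATP in muscle, 1 rose and 2 fell, with a median of -0.65 (-0.99 to -0.32). Ckm, the muscle form, was at 1215 and 1566 at E18.5 and 96.5 and 162 at P1 (log2 -3.45 ± 0.50, adjusted p = 0.00135). Ckb, the brain-type form, was at 196 and 265 at E18.5 and 81.1 and 86.8 at P1 (log2 -1.43 ± 0.16, adjusted p = 0.000431). Gatm, the first enzyme of creatine synthesis, rose from a low level, 0.652 and 1.21 to 5.16 and 8.22 FPKM (log2 1.98 ± 0.30, adjusted p = 0.00152).

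Calcium handling genes gave no call among 15 tested by limma, where 16.2% of all genes were called, and 5 had an unadjusted p under 0.05. Their median was -0.02, a value whose sign turned with TPM (0.22), without E18.5 replicate 2 (0.18) and without P1 replicate 1 (0.29). The calcium pump Atp2a2 was at 614 and 754 at E18.5 and 609 and 1117 at P1 and its inhibitor phospholamban (Pln) at 248 and 242 at E18.5 and 124 and 176 at P1 (log2 -0.73, adjusted p = 0.0843). Ion channels moved in both directions, with 4 of 16 higher, 4 lower and a median of 0.13, which ran from -0.15 to 0.50 and was negative without P1 replicate 2. Kcnip2, a subunit of the transient outward potassium channel, was at 21.9 and 38.8 at E18.5 and 2.34 and 3.76 at P1 (log2 -2.92 ± 0.28, adjusted p = 0.00023). The T-type calcium channel Cacna1h was at 5.22 and 6.91 at E18.5 and 1.10 and 1.597 at P1 (log2 -1.59 ± 0.23, adjusted p = 0.00135). The other T-type channel tested, Cacna1g, moved in the opposite direction (log2 1.19), a call lost without either E18.5 library (log2 1.05, adjusted p = 0.092 and log2 1.32, adjusted p = 0.0564) and without P1 replicate 2 (log2 0.65, adjusted p = 0.0593). Hcn2 was also called higher (log2 1.02), but not without E18.5 replicate 1 (log2 0.86, adjusted p = 0.0129) or P1 replicate 2 (log2 0.90, adjusted p = 0.0167), so that the count of higher channels dropped from 4 to 2 without P1 replicate 2.

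Trim72, which encodes the muscle membrane repair protein MG53, rose from 18.8 and 9.82 FPKM at E18.5 to 66.0 and 104.2 at P1 (log2 2.52 ± 0.43, adjusted p = 0.00279), with both P1 libraries above both E18.5 libraries. Its repair partner dysferlin (Dysf) was at 6.34 and 4.71 at E18.5 and 13.1 and 17.2 at P1 (log2 1.31 ± 0.19, adjusted p = 0.00142). Annexin A1 (Anxa1), a membrane-binding protein, was at 29.9 and 21.2 at E18.5 and 299.8 and 192 at P1 (log2 3.20 ± 0.22, adjusted p = 6.51e-05). Cavin4, a muscle caveolar coat protein, was at 32.6 and 36.2 at E18.5 and 5.69 and 8.21 at P1 (log2 -2.17 ± 0.26, adjusted p = 0.000603). Among the 13 genes of membrane repair and caveolae, 3 rose, 1 fell and the median was 0.47. Trim72 had an ATAC-seq peak in both P1 libraries, centred 504 and 542 bp before its RefSeq start at 128004378, and in neither E18.5 library within 2.5 kb. Its GENCODE start, used for the promoter classes below, is at 128003949, which is nearer to the peak. The peak and the GENCODE start both lie upstream of the window printed here, which is the RefSeq promoter at chr7:128004128-128004427 on GRCm38.p6, plus strand. Capitals mark the single CCAAT box, on the minus strand.
Trim72 promoter: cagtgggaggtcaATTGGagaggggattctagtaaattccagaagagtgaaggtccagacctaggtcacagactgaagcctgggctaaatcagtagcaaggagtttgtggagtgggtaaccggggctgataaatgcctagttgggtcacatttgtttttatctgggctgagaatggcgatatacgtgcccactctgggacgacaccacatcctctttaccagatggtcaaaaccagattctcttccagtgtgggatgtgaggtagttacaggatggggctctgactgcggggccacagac

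Of 20 enzymes that oxidise fatty acids, 14 were called lower at P1 and 0 higher, and the median was -1.21 against 0.15 over all genes. Beside this, the cardiomyocyte identity genes had a median of -0.76 and the fibroblast markers one of 1.45. The part of the cell makeup in these values was not tested. Cpt1b, the muscle form of the enzyme that commits fatty acids to mitochondrial uptake, was at 129.7 and 162 at E18.5 and 33.0 and 42.1 at P1 (log2 -1.93 ± 0.34, adjusted p = 0.00335). Its liver-type relative Cpt1a was at 10.9 and 12.7 at E18.5 and 16.4 and 11.6 at P1 (log2 0.21, adjusted p = 0.487). Acsl1, which activates long-chain fatty acids, was at 93.6 and 93.6 at E18.5 and 17.3 and 22.6 at P1 (log2 -2.19 ± 0.33, adjusted p = 0.00155). The dehydrogenases of each chain length fell by similar amounts: Acadvl (log2 -1.32), Acadl (log2 -1.25), Acadm (log2 -1.14) and Acads (log2 -1.14), and so did both subunits of the trifunctional protein, Hadha (log2 -1.32) and Hadhb (log2 -1.17). Acads was not called without E18.5 replicate 2 (log2 -0.75, adjusted p = 0.148), without P1 replicate 1 (log2 -1.09, adjusted p = 0.0946) or without P1 replicate 2 (log2 -1.19, adjusted p = 0.067), and Acadm was not called without P1 replicate 1 (log2 -0.99, adjusted p = 0.012). With TPM, Acadm (log2 -0.90, adjusted p = 0.00295), Acads (log2 -0.92, adjusted p = 0.0406) and Hadhb (log2 -0.94, adjusted p = 0.001) were not called. In the electron transfer branch, Etfb was at 314 and 266 at E18.5 and 102 and 106 at P1 (log2 -1.46 ± 0.19, adjusted p = 0.000863).

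Several genes that supply fat to these enzymes fell too. Fabp3, the heart fatty acid binding protein, was at 1217 and 1474 at E18.5 and 300.0 and 339 at P1 (log2 -2.07 ± 0.35, adjusted p = 0.00263). Cd36, the main fatty acid transporter, was at 122 and 88.9 at E18.5 and 35.0 and 33.5 at P1 (log2 -1.58 ± 0.17, adjusted p = 0.000335). Pdk4, which turns down pyruvate oxidation, was at 58.1 and 54.7 at E18.5 and 6.49 and 7.31 at P1 (log2 -2.86 ± 0.30, adjusted p = 0.000361). The mitochondrial thioesterase Acot2 was at 43.7 and 41.0 at E18.5 and 5.02 and 5.31 at P1 (log2 -2.81 ± 0.14, adjusted p = 2.79e-05). Fabp4, a fatty acid binding protein of adipocytes and capillary endothelium, had the largest fall of the list, at 267 and 179 at E18.5 and 18.6 and 25.9 at P1 (log2 -3.26 ± 0.27, adjusted p = 0.000125). Of 17 genes tested, 7 fell and 0 rose, with a median of -0.58. Transcripts of the factors that control these genes gave no call among 13 tested, where 16.2% of all genes were called. The nuclear receptor Ppara was at 1.06 and 1.44 at E18.5 and 0.457 and 0.818 at P1 (log2 -0.46, adjusted p = 0.102). The orphan receptor Esrra was at 43.2 and 52.5 at E18.5 and 35.3 and 39.7 at P1 (log2 -0.34, adjusted p = 0.142). The coactivator Ppargc1a was at 10.3 and 7.91 at E18.5 and 4.16 and 7.19 at P1 (log2 -0.63, adjusted p = 0.0966), and 5 of the 13 had an unadjusted p under 0.05.

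All 38 nuclear-encoded respiratory chain subunits tested had a log2 fold change below 0, from -1.92 to -0.53, with a median of -0.86. Of these, 14 passed the condition on size and were called lower. The 3 largest falls were those of muscle isoforms of cytochrome c oxidase. Cox6a2 was at 749 and 913 at E18.5 and 180.2 and 263 at P1 (log2 -1.92 ± 0.52, adjusted p = 0.0194). Cox8b was at 137 and 170.4 at E18.5 and 32.2 and 63.6 at P1 (log2 -1.73 ± 0.46, adjusted p = 0.0178). Cox7a1 was at 111 and 134 at E18.5 and 35.4 and 49.9 at P1 (log2 -1.52 ± 0.27, adjusted p = 0.00338). The ubiquitous partner Cox6a1 was at 884 and 1088 at E18.5 and 606 and 663 at P1 (log2 -0.63, adjusted p = 0.00963), a smaller difference. The count of 14 moved to 4 with TPM, 3 without E18.5 replicate 2 and 5 without P1 replicate 1, while all 38 values kept their sign under each of the 15 other settings tried. Cox6a2 did not pass without E18.5 replicate 1 (log2 -2.06, adjusted p = 0.0644), without E18.5 replicate 2 (log2 -1.78, adjusted p = 0.105) or without P1 replicate 1 (log2 -1.65, adjusted p = 0.101), nor did Cox8b without the same libraries (log2 -1.89, adjusted p = 0.0561, log2 -1.57, adjusted p = 0.102 and log2 -1.25, adjusted p = 0.108). The mitochondria-like pseudogenes also took a smaller share of TPM at P1, as given above, and its part in these values was not tested.

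Of 21 glycolytic genes, 3 fell and 0 rose, where 16.2% of all genes were called, with a median of -0.43 (-0.73 to -0.085). Ldhb, the lactate dehydrogenase subunit of oxidative tissue, was at 756 and 975 at E18.5 and 201 and 295 at P1 (log2 -1.81 ± 0.31, adjusted p = 0.0029), while Ldha was at 819 and 986 at E18.5 and 643 and 847 at P1 (log2 -0.28, adjusted p = 0.225). Tpi1, triose phosphate isomerase, was at 667 and 697 at E18.5 and 275 and 369 at P1 (log2 -1.10 ± 0.17, adjusted p = 0.00179), and was not called without P1 replicate 1 (log2 -0.88, adjusted p = 0.0083). Pfkm, the muscle phosphofructokinase at the committing step of glycolysis, was at 101 and 139 at E18.5 and 42.1 and 66.0 at P1 (log2 -1.15 ± 0.24, adjusted p = 0.00646). The Pfkm call was lost with TPM (log2 -0.92, adjusted p = 0.0146), without E18.5 replicate 2 (log2 -0.92, adjusted p = 0.0475) and without P1 replicate 1 (log2 -0.83, adjusted p = 0.0359). The count of lower genes in the list went from 3 to 1 without P1 replicate 1 and to 5 without P1 replicate 2. Among hypoxia genes, 3 of 18 rose and 5 fell, with a median of -0.60 (-0.84 to -0.16). Hif1a itself rose (45.8 and 35.1 at E18.5 and 98.2 and 89.99 at P1, log2 1.21 ± 0.15, adjusted p = 0.00074), whereas the HIF target Pdk1 (43.5 and 52.9 at E18.5 and 7.53 and 18.4 at P1, log2 -1.93 ± 0.33, adjusted p = 0.00296) and the antagonist Hif3a (3.23 and 3.75 at E18.5 and 0.0863 and 0.133 at P1, log2 -2.01 ± 0.15, adjusted p = 8.87e-05) fell. Bnip3, a mitophagy receptor induced by hypoxia, differed between the P1 libraries (95.6 and 115 at E18.5 and 18.1 and 71.1 at P1). Its call was lost without any 1 of E18.5 replicate 1 (log2 -1.65, adjusted p = 0.111), E18.5 replicate 2 (log2 -1.38, adjusted p = 0.178) and P1 replicate 1 (log2 -0.56, adjusted p = 0.111). Without P1 replicate 2 the count of lower hypoxia genes was 8.

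Pfkm also exchanged its transcript. Pfkm-201, which starts at chromosome 15, 98108466, made up 99.5% and 99.6% of Pfkm FPKM at E18.5 and 39.4% and 31.8% at P1 (adjusted p = 0.00141). Pfkm-202, which starts 15877 bp upstream at 98092589, made up 0.270% and 0.158% at E18.5 and 60.5% and 68.0% at P1 (adjusted p = 0.00141). In FPKM, Pfkm-201 was at 100.3 and 139 at E18.5 and 16.6 and 20.98 at P1, while Pfkm-202 was at 0.272 and 0.220 and then at 25.5 and 44.9, so the 2 transcripts moved in opposite directions. The exchange was not present later: Pfkm-201 held 98.5% and 98.3% of the gene at P3 and 100% in both libraries at P7. The transcripts share 92.3% of their combined exonic bases, so the division of reads between them rests on 146 bases found only in Pfkm-201 and 83 found only in Pfkm-202. Pfkm also overlaps Senp1 on the other strand and Gm26513 on the same strand. Reads of overlapping genes cannot be told apart, and a nearby peak cannot be assigned to 1 of them. Both E18.5 libraries held an ATAC-seq peak centred 721 and 799 bp after the distal start, E18.5 replicate 2 held 1 centred 337 bp after the proximal start, and neither P1 library held a peak within 2.5 kb of either. The promoters of the 2 starts are printed because the exchange lies between them, both from RefSeq on GRCm38.p6, plus strand, chr15:98092339-98092638 for the distal and chr15:98108221-98108520 for the proximal start. Neither holds a CCAAT, AP1, MEF2, ERR or E2F match, so there are no capitals.
Pfkm distal promoter: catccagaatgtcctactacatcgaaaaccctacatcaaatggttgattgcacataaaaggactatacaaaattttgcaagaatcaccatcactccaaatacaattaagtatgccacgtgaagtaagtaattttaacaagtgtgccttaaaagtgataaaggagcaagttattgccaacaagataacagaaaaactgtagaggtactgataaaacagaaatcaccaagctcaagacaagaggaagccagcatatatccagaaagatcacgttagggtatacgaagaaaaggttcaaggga
Pfkm proximal promoter: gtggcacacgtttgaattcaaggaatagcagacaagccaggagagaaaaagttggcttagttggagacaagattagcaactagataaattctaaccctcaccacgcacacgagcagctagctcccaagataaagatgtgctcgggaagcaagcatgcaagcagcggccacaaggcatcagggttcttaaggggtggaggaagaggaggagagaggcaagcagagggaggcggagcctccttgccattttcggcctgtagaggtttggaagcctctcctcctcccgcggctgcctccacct

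Immediate early genes and the AP1 family respond within minutes to growth signals and stress. Of 12 AP1 factors, 5 fell, 0 rose and 7 were not called, with a median of -0.91 (-1.42 to -0.39). Fos was at 160.3 and 182 at E18.5 and 4.81 and 10.4 at P1 (log2 -4.40 ± 0.30, adjusted p = 5.8e-05). Fosb was at 41.5 and 65.4 at E18.5 and 0.955 and 0.909 at P1 (log2 -4.78 ± 0.27, adjusted p = 3.66e-05). Atf3, a stress-induced partner of the Jun proteins, was at 142 and 205 at E18.5 and 10.5 and 14.04 at P1 (log2 -3.71 ± 0.21, adjusted p = 3.66e-05). These 3 were at least 9 times as high in each E18.5 library as in each P1 library. Among the Jun proteins, Jun was at 111 and 202 at E18.5 and 27.4 and 28.7 at P1 (log2 -2.38 ± 0.25, adjusted p = 0.000361). Junb was at 169 and 193 at E18.5 and 56.2 and 67.2 at P1 (log2 -1.54 ± 0.18, adjusted p = 0.000508), while Jund was at 106 and 190.5 at E18.5 and 70.7 and 70.4 at P1 (log2 -0.998, adjusted p = 0.011) and did not pass the condition on size. It passed with median-of-ratios size factors (log2 -1.14, adjusted p = 0.00893) and without E18.5 replicate 1 (log2 -1.42, adjusted p = 0.000827) or P1 replicate 1 (log2 -1.002, adjusted p = 0.0475). Outside AP1, 13 of 19 immediate early genes fell and 0 rose, with a median of -1.45. Gadd45b, a stress-induced growth arrest gene, was at 248 and 299 at E18.5 and 38.4 and 29.1 at P1 (log2 -2.99 ± 0.22, adjusted p = 7.73e-05). The orphan receptor Nr4a1 was at 79.2 and 66.0 at E18.5 and 12.1 and 9.27 at P1 (log2 -2.66 ± 0.18, adjusted p = 5.8e-05). Egr1, a zinc finger factor, was at 89.2 and 85.3 at E18.5 and 12.0 and 31.2 at P1 (log2 -2.11 ± 0.42, adjusted p = 0.00538). The matricellular genes Ccn1 (log2 0.37) and Ccn2 (log2 0.80) were not called and had values above 0. Ccn2 was called higher with TPM (log2 1.04, adjusted p = 0.00669) and without E18.5 replicate 2 (log2 1.02, adjusted p = 0.0421) or P1 replicate 2 (log2 1.17, adjusted p = 0.00465).

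Inducible chaperones followed, with 4 of 15 lower, 0 higher and a median of -0.70, where 6.06% of all genes were called lower. Hspb1, a small heat shock protein of muscle, was at 576 and 1349 at E18.5 and 238 and 256 at P1 (log2 -1.83 ± 0.37, adjusted p = 0.00563), and the 2 E18.5 libraries differed for it as they did for Hspa1a. Dnajb1, an HSP70 cochaperone, was the other gene that fell (log2 -1.10), a call lost without E18.5 replicate 2 (log2 -0.77, adjusted p = 0.00562). Of 12 glucocorticoid-related genes tested 1 rose and 2 fell, where 16.2% of all genes were called. The median of the 12 was -0.17, and its sign turned with TPM. Tsc22d3, a glucocorticoid-induced leucine zipper protein, fell (37.6 and 42.6 at E18.5 and 10.8 and 12.998 at P1, log2 -1.68 ± 0.18, adjusted p = 0.000361), and so did the clock gene Per1 (11.2 and 14.5 at E18.5 and 3.73 and 3.92 at P1, log2 -1.51 ± 0.18, adjusted p = 0.000603), whereas Cebpb rose (log2 1.12), a call lost without E18.5 replicate 1 (log2 0.84, adjusted p = 0.033). Among 18 clock genes, with a median of -0.42, Per1, Nr1d1 (27.1 and 41.4 at E18.5 and 9.44 and 9.69 at P1, log2 -1.71 ± 0.20, adjusted p = 0.000565) and Ciart fell and 0 rose, where 16.2% of all genes were called. Without E18.5 replicate 1 the fall of Ciart was under the size threshold (log2 -0.80).

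Of 14 cardiac transcription factors tested, 0 rose and 2 fell, where 16.2% of all genes were called, with a median of -0.39 (-0.59 to -0.19). Hey2, a Notch target that marks compact ventricular myocardium, was at 16.6 and 19.1 at E18.5 and 2.20 and 2.82 at P1 (log2 -2.43 ± 0.17, adjusted p = 6.51e-05). Hand1, a left ventricular factor of the embryo, was at 3.42 and 5.10 at E18.5 and 0.976 and 1.13 at P1 (log2 -1.34 ± 0.19, adjusted p = 0.00135). Gata4 was at 71.3 and 65.9 at E18.5 and 34.5 and 39.9 at P1 (log2 -0.87, adjusted p = 0.0899). Nkx2-5 was at 93.1 and 109 at E18.5 and 68.6 and 100.1 at P1 (log2 -0.28, adjusted p = 0.569). The MEF2 factors, which drive muscle gene expression, were not called. Mef2a was at 20.4 and 17.7 at E18.5 and 19.2 and 19.6 at P1 (log2 0.03 ± 0.13, adjusted p = 0.882). Mef2c was at 4.12 and 4.16 at E18.5 and 3.04 and 4.26 at P1 (log2 -0.16 ± 0.18, adjusted p = 0.512). Mef2d was at 40.3 and 37.9 at E18.5 and 25.5 and 29.9 at P1 (log2 -0.49 ± 0.15, adjusted p = 0.0333), and Mef2b did not pass the filter. The sign of Mef2a and Mef2c turned with the scaling or a left-out library. Over 11 MEF2 factors and histone deacetylases 0 rose and 1 fell, where 16.2% of all genes were called. Their median was 0.03, and its sign turned with the scaling. Of the deacetylases that bind MEF2, Hdac5 was at 46.9 and 55.6 at E18.5 and 22.4 and 26.9 at P1 (log2 -1.03 ± 0.15, adjusted p = 0.00147), a call lost with TPM (log2 -0.81, adjusted p = 0.00413), without E18.5 replicate 2 (log2 -0.91, adjusted p = 0.0108) and without P1 replicate 1 (log2 -0.90, adjusted p = 0.0121).

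Of 21 DNA replication genes, 6 rose, 0 fell and the median was 0.51. Tyms, thymidylate synthase, was at 3.92 and 4.04 at E18.5 and 27.02 and 14.5 at P1 (log2 2.07 ± 0.25, adjusted p = 0.000602). Rrm1, the large subunit of ribonucleotide reductase, was at 22.6 and 30.3 at E18.5 and 72.5 and 61.8 at P1 (log2 1.32 ± 0.16, adjusted p = 0.000697). The replicative helicase subunit Mcm4 was at 9.66 and 14.3 at E18.5 and 38.3 and 26.3 at P1 (log2 1.36 ± 0.22, adjusted p = 0.00219). P1 replicate 1 was the highest library for each of them, and without it the count was 3, with Mcm3 (log2 0.94, adjusted p = 0.0086), Uhrf1 (log2 0.97, adjusted p = 0.0245) and Pola1 (log2 0.92, adjusted p = 0.0178) no longer called. Uhrf1 was not called without E18.5 replicate 1 either (log2 0.91, adjusted p = 0.0153), nor Pola1 without E18.5 replicate 2 (log2 0.97, adjusted p = 0.0132). Of 22 mitosis genes, 2 rose, where 10.1% of all genes did, the cytokinesis scaffold Anln (12.6 and 15.7 at E18.5 and 38.8 and 30.1 at P1, log2 1.23 ± 0.16, adjusted p = 0.000945) and the kinase Plk1 (18.5 and 25.4 at E18.5 and 53.6 and 45.0 at P1, log2 1.14 ± 0.17, adjusted p = 0.00136). Plk1 was not called without E18.5 replicate 1 (log2 0.92, adjusted p = 0.00528), and 4 mitosis genes were called without P1 replicate 2. The proliferation marker Mki67 was at 15.04 and 18.5 at E18.5 and 16.4 and 15.2 at P1, with overlap between ages and a sign that turned with TPM and without E18.5 replicate 2. Hmgb2, a chromatin protein of dividing cells, was at 99.2 and 118 at E18.5 and 76.0 and 64.4 at P1 (log2 -0.62, adjusted p = 0.0151). Stmn1, a microtubule destabiliser, was at 153 and 185 at E18.5 and 102 and 85.0 at P1 (log2 -0.85, adjusted p = 0.00405); both were lower in each P1 library but under the size threshold.

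Regulators of the G1 phase moved in both directions. Ccnd1, cyclin D1, was at 11.7 and 9.07 at E18.5 and 69.5 and 34.5 at P1 (log2 2.15 ± 0.30, adjusted p = 0.00111). The INK4 inhibitors Cdkn2a (0.215 and 0.336 at E18.5 and 7.39 and 7.92 at P1, log2 2.76 ± 0.15, adjusted p = 3.45e-05) and Cdkn2b (4.24 and 1.64 at E18.5 and 19.1 and 17.4 at P1, log2 2.37 ± 0.28, adjusted p = 0.000546), which block the kinases that cyclin D activates, rose as well. The CIP/KIP inhibitors Cdkn1a (305 and 236 at E18.5 and 132 and 109 at P1, log2 -1.15 ± 0.18, adjusted p = 0.00204) and Cdkn1c (40.7 and 45.9 at E18.5 and 13.7 and 21.2 at P1, log2 -1.29 ± 0.28, adjusted p = 0.00813) fell. Cdkn1a was not called with TPM (log2 -0.92, adjusted p = 0.00572) or without E18.5 replicate 1 (log2 -0.97, adjusted p = 0.0133), and Cdkn1c was not called without E18.5 replicate 2 (log2 -1.21, adjusted p = 0.0538) or P1 replicate 1 (log2 -0.99, adjusted p = 0.0537). Over the 14 genes 4 rose and 2 fell, with a median of -0.05 that turned to 0.17 with TPM, 0.30 without E18.5 replicate 2 and 0.17 without P1 replicate 2.

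Several imprinted growth genes of the fetus fell, with 6 of 15 lower, 2 higher and a median of -0.54. H19, the maternally expressed long non-coding RNA next to Igf2, was at 577 and 611 at E18.5 and 51.1 and 99.7 at P1 (log2 -3.04 ± 0.26, adjusted p = 0.000162) and had the largest fall of any non-coding gene. Igf2, the main fetal growth factor, was at 102 and 309 at E18.5 and 22.5 and 38.5 at P1 (log2 -2.55 ± 0.51, adjusted p = 0.00565). Its clearance receptor Igf2r was at 87.6 and 72.3 at E18.5 and 37.6 and 37.2 at P1 (log2 -1.07 ± 0.17, adjusted p = 0.00184). Igf2r was not called with TPM (log2 -0.84, adjusted p = 0.00587) or without E18.5 replicate 1 (log2 -0.93, adjusted p = 0.0117). Dlk1, a Notch-like ligand, was at 29.2 and 27.7 at E18.5 and 3.73 and 5.80 at P1 (log2 -2.38 ± 0.19, adjusted p = 0.000124). Plagl1, a zinc finger factor of the same network, was at 93.1 and 81.3 at E18.5 and 35.1 and 37.6 at P1 (log2 -1.24 ± 0.17, adjusted p = 0.00115). Among 13 genes of the insulin-like growth factor axis 2 rose and 3 fell, with a median of -0.08 that turned to 0.14 with TPM and was above 0 without either E18.5 library or P1 replicate 1. Without E18.5 replicate 1, 1 of them rose. Of the IGF binding proteins, Igfbp5 was at 33.9 and 34.0 at E18.5 and 2.48 and 4.67 at P1 (log2 -2.98 ± 0.23, adjusted p = 0.000109), while Igfbp7 was at 32.4 and 24.1 at E18.5 and 283 and 229.7 at P1 (log2 3.15 ± 0.17, adjusted p = 3.19e-05). Irs2, an insulin receptor substrate, was at 8.98 and 14.6 at E18.5 and 6.28 and 7.75 at P1 (log2 -0.65, adjusted p = 0.0464) and was not called.

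Ligands of the EGF family split, with 3 of 8 genes higher and 2 lower, and a median of 0.24. Neuregulin 1 (Nrg1), which signals from endothelium to cardiomyocytes, was at 1.602 and 1.22 at E18.5 and 20.5 and 14.7 at P1 (log2 2.93 ± 0.30, adjusted p = 0.000301). The receptor Egfr was at 0.610 and 0.249 at E18.5 and 5.08 and 5.85 at P1 (log2 2.19 ± 0.18, adjusted p = 0.000134). Ereg, epiregulin, was at 2.35 and 1.71 at E18.5 and 13.9 and 4.13 at P1 (log2 1.54 ± 0.43, adjusted p = 0.0214), with the P1 libraries far apart, and lost its call without E18.5 replicate 1 (log2 1.69, adjusted p = 0.0608), E18.5 replicate 2 (log2 1.39, adjusted p = 0.113) or P1 replicate 1 (log2 0.77, adjusted p = 0.0531). Areg, amphiregulin, was at 5.77 and 5.01 at E18.5 and 0.382 and 0.267 at P1 (log2 -2.27 ± 0.16, adjusted p = 6.26e-05), and was the 1 ligand called lower without E18.5 replicate 1 or P1 replicate 2. Of the 6 thyroid hormone genes, 2 were tested, 1 rose and 1 fell. The receptor Thra fell (40.0 and 52.1 at E18.5 and 18.2 and 22.5 at P1, log2 -1.13 ± 0.16, adjusted p = 0.00135), though not with TPM (log2 -0.92, adjusted p = 0.0029), without E18.5 replicate 2 (log2 -0.95, adjusted p = 0.00804) or without P1 replicate 1 (log2 -0.99, adjusted p = 0.0109).

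Matrix genes rose in large number: 15 of 27 collagens, glycoproteins and crosslinkers were called higher and 1 lower, with a median of 1.10. The fibrillar collagen chains Col1a1 (70.6 and 67.1 at E18.5 and 258 and 357 at P1, log2 2.12 ± 0.18, adjusted p = 0.000141) and Col1a2 (71.6 and 67.5 at E18.5 and 243 and 340.2 at P1, log2 2.03 ± 0.18, adjusted p = 0.000184) rose, whereas Col3a1 was at 96.9 and 92.8 at E18.5 and 84.0 and 126 at P1 (log2 0.11, adjusted p = 0.705). Fibronectin (Fn1) was at 84.8 and 81.5 at E18.5 and 455 and 528 at P1 (log2 2.54 ± 0.14, adjusted p = 3.72e-05). Biglycan (Bgn) was at 65.9 and 65.1 at E18.5 and 428 and 374 at P1 (log2 2.59 ± 0.17, adjusted p = 5.48e-05), and the collagen crosslinkers Lox and Loxl1 rose by 2.76 and 2.91 on the log2 scale. Eln, elastin, was the gene that fell, at 97.0 and 158 at E18.5 and 10.3 and 7.80 at P1 (log2 -3.64 ± 0.29, adjusted p = 0.000113). Sparc, a collagen-binding protein, was among the 5 most abundant protein-coding genes that rose (533 and 457 at E18.5 and 1003 and 1116 at P1, log2 1.10 ± 0.14, adjusted p = 0.000678). It was under the size threshold with median-of-ratios size factors (log2 0.96, adjusted p = 0.00169) and without E18.5 replicate 2 (log2 0.99). Of 16 matrix proteases and inhibitors, 7 rose and 1 fell, with a median of 0.93. Timp1 (24.3 and 18.1 at E18.5 and 181 and 153 at P1, log2 2.93 ± 0.17, adjusted p = 4.04e-05) and Timp3 (35.7 and 38.5 at E18.5 and 119 and 105 at P1, log2 1.56 ± 0.14, adjusted p = 0.000163), inhibitors of matrix metalloproteinases, rose, and Mmp3, a stromelysin, was at 0.151 and 0.0649 at E18.5 and 18.6 and 12.5 at P1 (log2 3.88 ± 0.23, adjusted p = 4.04e-05). Adamts1, a proteoglycan-cleaving protease, was at 44.7 and 44.1 at E18.5 and 18.03 and 16.1 at P1 (log2 -1.33 ± 0.12, adjusted p = 0.000211) and was the 1 that fell. The other abundant genes that rose were Lgals1, a galactose-binding lectin (180.3 and 204 at E18.5 and 1296 and 968 at P1, log2 2.54 ± 0.16, adjusted p = 4.69e-05), and Cst3, a secreted protease inhibitor (311 and 334 at E18.5 and 928 and 1263 at P1, log2 1.75 ± 0.16, adjusted p = 0.000215).

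Of the marker lists of other cell types, those of fibroblasts and of the epicardium had medians above that of all genes. Of 12 fibroblast markers, several of which are matrix genes counted above, 7 rose and 2 fell, with a median of 1.45, and the summed level was 499.8 and 488 FPKM at E18.5 and 1318 and 1515 at P1. Pdgfra, the receptor that marks fibroblasts, was at 1.40 and 1.65 at E18.5 and 32.4 and 33.6 at P1 (log2 3.75 ± 0.13, adjusted p = 1.28e-05). Tcf21, a fibroblast lineage factor, was at 7.28 and 9.33 at E18.5 and 45.4 and 54.1 at P1 (log2 2.45 ± 0.23, adjusted p = 0.000215) and decorin (Dcn) at 85.5 and 84.5 at E18.5 and 393 and 412 at P1 (log2 2.23 ± 0.10, adjusted p = 1.86e-05). Dpt fell (log2 -1.07) and Postn was lower without a call (100.1 and 102 at E18.5 and 66.5 and 41.0 at P1, log2 -0.94, adjusted p = 0.0176). Postn was called lower with median-of-ratios size factors (log2 -1.08, adjusted p = 0.0124) and without P1 replicate 1 (log2 -1.28, adjusted p = 0.00818). The fall of Dpt was lost without E18.5 replicate 1 (log2 -0.94, adjusted p = 0.0969), E18.5 replicate 2 (log2 -1.20, adjusted p = 0.0556) or P1 replicate 2 (log2 -0.59, adjusted p = 0.0699). The second fall, of Pi16, was lost without E18.5 replicate 1 (log2 -0.98, adjusted p = 0.0102). Of 11 epicardial and mesothelial markers, 5 rose and 1 fell, with a median of 0.89. Their summed level was 205 and 217 FPKM at E18.5 and 349 and 459 at P1. Lrrn4, a mesothelial surface protein, was at 4.25 and 3.70 at E18.5 and 63.6 and 80.0 at P1 (log2 3.86 ± 0.25, adjusted p = 5.46e-05). Krt19, a keratin of the same cells, was at 41.2 and 39.4 at E18.5 and 13.9 and 16.1 at P1 (log2 -1.37 ± 0.22, adjusted p = 0.00208). None of the markers of either list was at 0 in all 4 libraries. The part of these cells in the rise of matrix and cytokine genes was not tested.

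Cytokines and acute phase genes rose in most cases but not all, with 12 of 20 higher, 4 lower and a median of 1.11. Besides Saa3, Cxcl5, Lcn2 and Hp, the stromal chemokine Cxcl12 was at 7.51 and 8.89 at E18.5 and 74.0 and 47.6 at P1 (log2 2.72 ± 0.21, adjusted p = 9.9e-05). Csf1, the macrophage growth factor, was at 45.3 and 27.5 at E18.5 and 205 and 138 at P1 (log2 2.22 ± 0.25, adjusted p = 0.000461). The 4 genes of the list that fell were Cxcl2, Icam1, Il1b and Nfkbia. Cxcl10, which fell as given above (log2 -4.16), was not in the list. Cxcl2 was at 62.3 and 79.9 at E18.5 and 4.78 and 4.94 at P1 (log2 -3.61 ± 0.20, adjusted p = 3.66e-05). Icam1, a leukocyte adhesion molecule, was at 249 and 176 at E18.5 and 37.6 and 27.2 at P1 (log2 -2.67 ± 0.20, adjusted p = 9.36e-05). Il1b was at 6.62 and 4.08 at E18.5 and 0.0612 and 0.108 at P1 (log2 -2.52 ± 0.23, adjusted p = 0.000184). Nfkbia, the inhibitor that NF-κB induces, was at 180.1 and 157 at E18.5 and 53.5 and 46.4 at P1 (log2 -1.74 ± 0.14, adjusted p = 0.000134). Without P1 replicate 1 the higher calls were 8, as Ccl2 (log2 0.85, adjusted p = 0.0131), Il6 (log2 0.88, adjusted p = 0.037), Csf3 (log2 0.90, adjusted p = 0.0108) and Vcam1 (log2 0.84, adjusted p = 0.0275) were no longer called. Il6 was not called without E18.5 replicate 1 either (log2 0.86, adjusted p = 0.0289), nor Ccl2 without E18.5 replicate 2 (log2 0.98, adjusted p = 0.0308). The macrophage markers had 1 of 10 higher and 1 lower, where 16.2% of all genes were called. Their median of -0.14 turned to 0.03 with TPM and to 0.06 without P1 replicate 1. The summed level of these markers was 66.9 and 59.9 FPKM at E18.5 and 121 and 161 at P1. Lyz2 alone took 9.45 and 10.3 of these sums at E18.5 and 83.3 and 112 at P1, so the higher sum rests on that gene. Lyz2, lysozyme, was the marker that rose (9.45 and 10.3 at E18.5 and 83.3 and 112 at P1, log2 3.17 ± 0.18, adjusted p = 4.04e-05), and the lipopolysaccharide coreceptor Cd14 was the 1 that fell (12.5 and 9.24 at E18.5 and 2.92 and 2.80 at P1, log2 -1.61 ± 0.21, adjusted p = 0.000798). Cd163 and Cx3cr1 did not pass the filter. Smooth muscle and pericyte markers had 2 of 10 higher, 2 lower and a median of -0.20 (-0.24 to 0.033, positive without P1 replicate 1). Their summed level was 431 and 559.6 FPKM at E18.5 and 1127 and 1052 at P1, of which Tagln took 15.5 and 18.9 at E18.5 and 355 and 243 at P1. Platelet and neutrophil markers had 1 of 9 higher and Schwann and neural markers 1 of 3, where 10.1% of all genes were called higher. Both lists had 0 lower, with medians of -0.54 (-0.78 to -0.018) and -0.30 (-0.59 to 0.18).

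Interferon response genes were split, with 8 of 20 higher, 3 lower and a median of 0.59. The interferon-induced chemokine Cxcl10, which fell (log2 -4.16), was not in this list. B2m, the light chain of class I antigen presentation, was at 369 and 288 at E18.5 and 1108 and 1138 at P1 (log2 1.78 ± 0.15, adjusted p = 0.00016). Bst2, a membrane tether of budding virus, was at 65.4 and 49.2 at E18.5 and 441 and 412 at P1 (log2 2.89 ± 0.17, adjusted p = 4.05e-05). Ifitm3, an endosomal antiviral protein, was at 131 and 92.7 at E18.5 and 416 and 436 at P1 (log2 1.94 ± 0.16, adjusted p = 0.000141). The antiviral enzyme Rsad2 was at 51.0 and 28.0 at E18.5 and 3.36 and 5.27 at P1 (log2 -2.89 ± 0.32, adjusted p = 0.000431). The guanylate-binding protein Gbp2 was at 29.7 and 24.1 at E18.5 and 5.03 and 3.90 at P1 (log2 -2.35 ± 0.18, adjusted p = 0.000105). The factor Irf1 was at 29.6 and 21.3 at E18.5 and 10.7 and 7.53 at P1 (log2 -1.39 ± 0.25, adjusted p = 0.00361). Cholesterol and fatty acid synthesis genes had 6 of 19 higher, 0 lower and a median of 0.44. Scd1, a fatty acid desaturase, was at 1.01 and 0.998 at E18.5 and 10.7 and 14.3 at P1 (log2 2.74 ± 0.23, adjusted p = 0.000141). Lss, a cyclase of the cholesterol path, was at 1.42 and 2.04 at E18.5 and 7.95 and 6.76 at P1 (log2 1.62 ± 0.24, adjusted p = 0.00136). Fdps, a prenyl diphosphate synthase, was at 22.7 and 32.0 at E18.5 and 66.8 and 63.9 at P1 (log2 1.24 ± 0.26, adjusted p = 0.0066). Scd2 was called higher (7.75 and 8.53 at E18.5 and 46.8 and 13.7 at P1), but not without P1 replicate 1 (log2 0.68, adjusted p = 0.148). Scd2 also lost its call without E18.5 replicate 1 (log2 1.47, adjusted p = 0.132) and E18.5 replicate 2 (log2 1.597, adjusted p = 0.119).

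The ribosomal protein and glutathione groups held few calls, where 16.2% of all genes were called. The share called was 13.3% in the ATF4 group and 33.3% in the S100 group. Of 77 cytosolic ribosomal proteins, 0 were called by limma (8 at an unadjusted p under 0.05), with a median of -0.00 that was 0.24 with TPM and -0.15 with median-of-ratios size factors. Of 77 mitochondrial ribosomal proteins, 1 was called higher, Mrpl17 (log2 1.03), named after its value was seen, and it was lost without E18.5 replicate 2 (log2 0.97, adjusted p = 0.0176) and P1 replicate 1 (log2 0.83, adjusted p = 0.0189). Among 17 glutathione and NRF2 genes 1 rose, Nqo1, a quinone reductase (13.02 and 7.51 at E18.5 and 136 and 47.7 at P1, log2 2.90 ± 0.47, adjusted p = 0.00233), and the count of higher genes was 3 without E18.5 replicate 1. Gstm1, a glutathione transferase, was at 45.3 and 52.7 at E18.5 and 90.5 and 59.2 at P1 (log2 0.57, adjusted p = 0.0521). Of 15 genes of the ATF4 amino acid response, Atf4 itself (399 and 332 at E18.5 and 133 and 126 at P1, log2 -1.48 ± 0.13, adjusted p = 0.000186) and Sesn2 (44.6 and 23.9 at E18.5 and 10.5 and 10.5 at P1, log2 -1.55 ± 0.26, adjusted p = 0.00271) fell, and the median was -0.52, which ran from -0.76 to 0.077 and was positive without E18.5 replicate 1. Without E18.5 replicate 2 the falls in that list were 4. Of 9 S100 genes 3 rose, S100a4, S100a6 and S100a11 (267 and 215 at E18.5 and 993 and 749 at P1, log2 1.85 ± 0.17, adjusted p = 0.000191), although the median was -0.05 and turned to 0.18 with TPM and 0.10 without E18.5 replicate 1, and 3 others fell without P1 replicate 2. Cfap20, a ciliary protein, was at 41.3 and 52.0 at E18.5 and 30.0 and 28.8 at P1 (log2 -0.64, adjusted p = 0.00738).

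**Figure D4:**
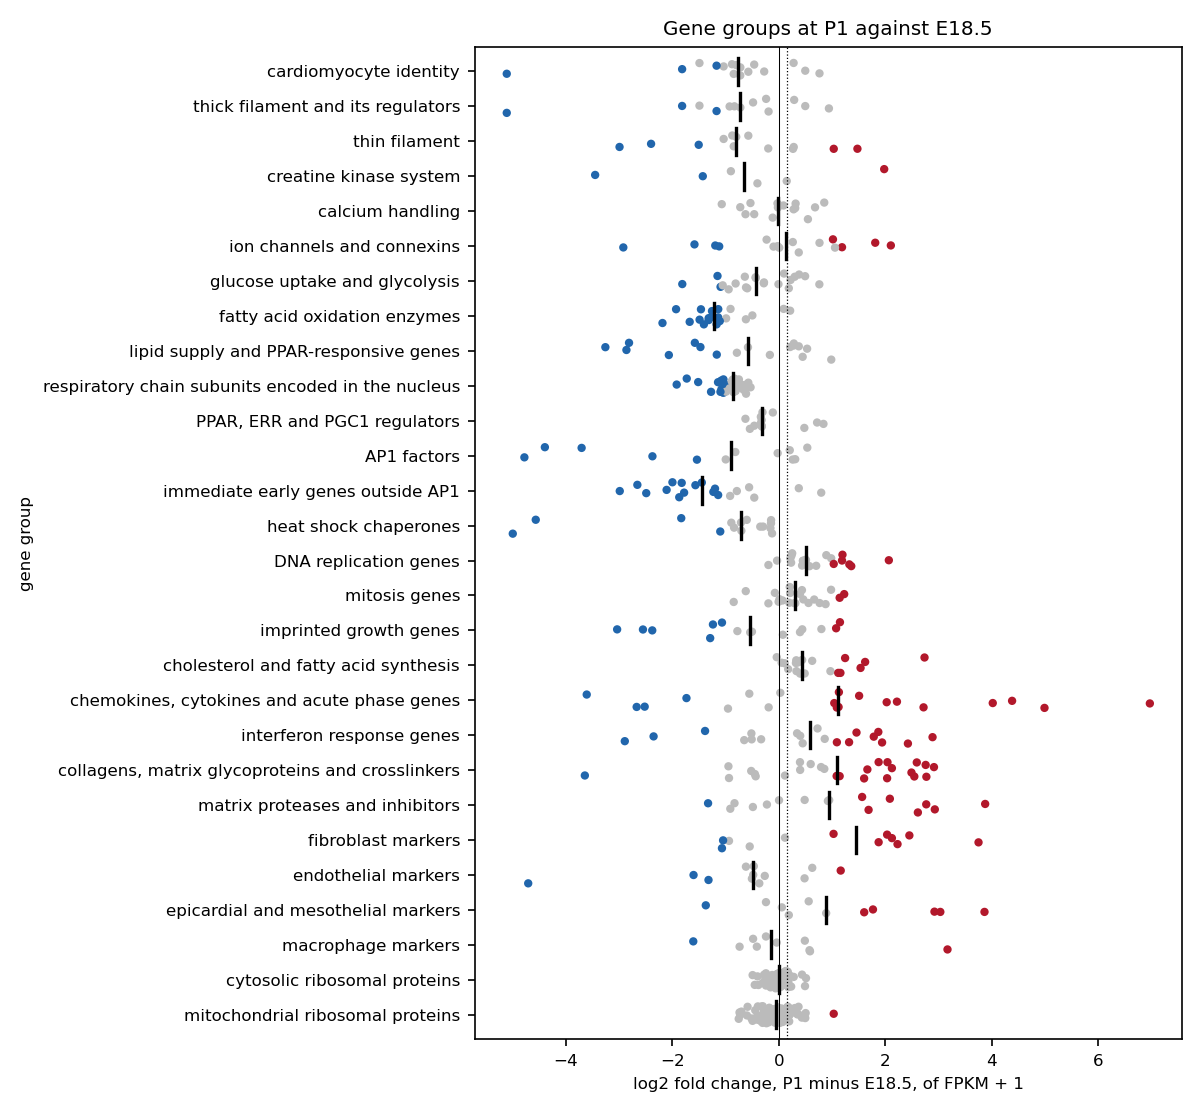
Log2 fold change of FPKM plus 1, P1 minus E18.5 (x axis), of each tested gene (point) in 28 gene groups (y axis), coloured red where called higher, blue where called lower and grey where not called, with a bar at each group's median and a dotted line at the median of all genes (0.15). Fatty acid oxidation (median -1.21), immediate early (-1.45) and respiratory chain genes (-0.86) lie to the left, and matrix genes (1.10) and fibroblast markers (1.45) to the right; points are spread vertically only for legibility.

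Among non-coding genes, Gm27505, a short annotated RNA inside the long non-coding RNA Neat1, had the largest rise, 0.179 and 0.148 at E18.5 and 25.9 and 50.1 at P1 (log2 4.99 ± 0.35, adjusted p = 6.37e-05), but its reads cannot be told from those of Neat1. The long intergenic RNA 3300005D01Rik was at 1.72 and 0.310 at E18.5 and 16.7 and 9.51 at P1 (log2 2.85 ± 0.36, adjusted p = 0.000733). Wincr1, described in fibroblasts, was at 0.551 and 0 at E18.5 and 9.67 and 4.44 at P1 (log2 2.61 ± 0.46, adjusted p = 0.00319). Gm12602 rose by 2.84 and Gm48529, antisense to Tagln, by 2.84 on the log2 scale. After H19, the largest falls were those of Gm42929 inside Cnn3 (log2 -2.75), Gm26917 (log2 -2.52), the precursor locus Mir24-2 (log2 -2.50) and Gm24447 (log2 -2.38). Gm42929 and Gm24447 passed the filter on low values only through the E18.5 libraries. Gm26917, 1 of the 5 genes taken as ribosomal RNA-like, and Mir24-2, which overlaps the host RNA Gm26532, were not called without E18.5 replicate 2 (log2 -2.46, adjusted p = 0.0595 and log2 -2.47, adjusted p = 0.0545).

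The share of each transcript in its gene was tested for 15430 transcripts of 4684 genes. At an adjusted p under 0.05 and a change of at least 10 percentage points, 91 transcripts of 72 genes were called (0.590% of those tested), 47 with a higher and 44 with a lower share at P1. Of the 72 genes, 21 were also called by level, and 18 genes held both a rising and a falling transcript. With only the 4 libraries in the fit, limma called 0 transcripts, although 2224 had an unadjusted p under 0.05, against 2666 with all 8 libraries, so these calls rest on the spread shared with the later ages. Besides Pfkm, 5 other pairs start more than 500 bp apart, those of Prss23, Rbpj, Sgca, Snrnp200 and Zfp362, which were named after their values were seen. In the other 12 pairs the 2 starts lie at most 500 bp apart, so the exchange is in exons or in the exact start.

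Furin, a protease that matures growth factors, had the largest rise of a share: Furin-202 made up 0.0148% and 0.0414% of the gene at E18.5 and 94.8% and 95.5% at P1 (adjusted p = 0.000394). It was again at 0% and 0.0426% at P3 and at 94.6% and 94.7% at P7, so the share did not follow age in 1 direction. The transcript with the largest opposite change, Furin-203, was not called and differed between the E18.5 libraries (96.6% and 29.7%) and shares 88.7% of exonic bases with Furin-202. Rbpj, the DNA-binding factor of Notch signalling, changed from Rbpj-203 (89.8% and 90.4% at E18.5, 4.51% and 5.48% at P1) to Rbpj-207 (0% in both E18.5 libraries, 86.4% and 85.5% at P1), and kept Rbpj-207 above 85% through P7. Actr8, a subunit of a chromatin remodeller, changed from Actr8-204 (87.2% and 82.2%, then 0% in both) to Actr8-201 (4.46% and 4.51%, then 86.9% and 83.4%). G6pc3, a glucose-6-phosphatase subunit, and Gpx8, a peroxidase of the endoplasmic reticulum, changed alike, from G6pc3-202 (89.8% and 90.4%, then 23.7% and 12.1%) and Gpx8-202 (79.5% and 79.8%, then 9.14% and 9.44%) to a 201 transcript. All 4 of these exchanges were still present at P3 and P7.

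Contractile genes were part of the exchange. Myh7-204 made up 70.8% and 63.4% of Myh7 at E18.5 and 0.0989% and 2.46% at P1 (adjusted p = 0.0276), and most of the remaining Myh7 at P1 was Myh7-201, at 93.3% and 90.2%, whose own change was not called. Since Myh7 itself fell to 36.6 and 73.9 FPKM and the 2 transcripts share 95.9% of exonic bases, the split at P1 is uncertain. Tpm2 changed from Tpm2-202 (72.7% and 55.8% at E18.5, 11.9% and 12.7% at P1, adjusted p = 0.0286) to Tpm2-203 (13.7% and 23.7%, then 79.9% and 75.5%, adjusted p = 0.0297), which share 36.9% of exonic bases. Myl2-203 rose from 21.4% and 24.99% to 57.6% and 51.7% of Myl2 (adjusted p = 0.0436). These pairs were chosen after their values were seen, because the genes stand in the lists above.

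**Figure D5:**
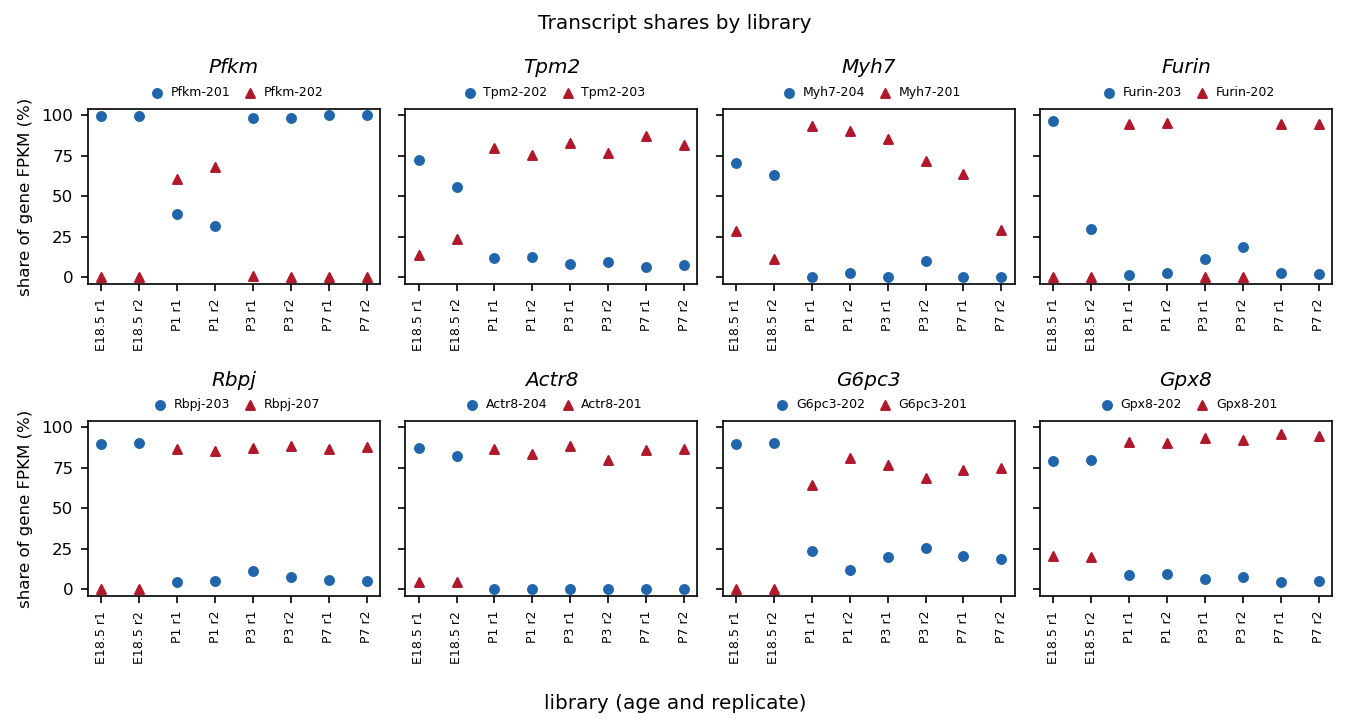
Share of the gene's FPKM in percent (y axis) taken by 2 transcripts of 8 genes in each mouse RNA-seq library from E18.5 to P7 (x axis, age and replicate), with the transcript that fell at P1 as blue circles and the transcript that rose as red triangles. The exchange in Pfkm is seen at P1 only, Furin-202 is high at P1 and P7 but not at E18.5 or P3, and the exchanges in Tpm2, Rbpj, Actr8, G6pc3 and Gpx8 persist through P7.

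Open chromatin at promoters was compared with the calls as a description, from 13149 and 14910 ATAC-seq peaks at E18.5 and 29281 and 19753 at P1. A promoter peak within 2.5 kb of a start in both P1 libraries and neither E18.5 library was held by 26 of the 1411 genes that rose (1.84%), 13 of the 847 that fell (1.53%) and 106 of the genes not called (0.904%). The opposite pattern was held by 51 of the genes that rose (3.61%), 36 of those that fell (4.25%) and 473 of those not called (4.04%). In comparison, 309 of the genes that rose and 203 of those that fell held a peak in all 4 lists (21.9% and 24.0%, against 35.1% of genes not called), and 32.8% and 38.3% held one in none, against 23.6%. With the 13149 highest-scoring peaks of each library, P1-specific promoters numbered 48 in place of 145 and E18.5-specific ones 1564 in place of 560. P1-specific promoters were then held by 0.496% of genes that rose, 1.06% of those that fell and 0.273% of those not called. For E18.5-specific promoters the shares were 9.71%, 8.62% and 11.6%. The order of genes that rose and genes that fell thus turned in both classes. Trim72 was in the first class, and Cldn5 and Pfkm were in the second.

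Short sequence motifs in RefSeq promoters (from 250 bases before to 50 after a start, GRCm38.p6) were counted on both strands, also with no test. They matched 10073 tested genes, 1059 of the genes that rose and 556 of those that fell. The AP1 letters TGACTCA stood in 5.23% of promoters of genes that rose, 4.51% of those that fell, 3.84% of those of tested genes and 5.20% of all promoters. The MEF2 consensus stood in 1.55%, 4.08%, 1.92% and 3.19%. The E2F letters TTTCCCGC stood in 2.14%, 0.437%, 1.99% and 1.07%, that is, in 29 promoters of genes that rose and in 3 of genes that fell. The ERR letters TCAAGGTCA stood in 0.368%, 0.437%, 0.272% and 0.423%, and CCAAT in 34.7%, 41.2%, 37.6% and 37.4%. The CRE letters TGACGTCA stood in 1.25%, 2.91%, 2.86% and 1.79%. The glucocorticoid response element consensus was found in 3 of 32851 promoters, and in 0 of the promoters of called genes.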

How the data were processed

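Per the labels and the submitters' processing notes, reads were aligned to mm10 with HISAT2 2.1.0, and the authors assembled and quantified GENCODE M21 transcripts with StringTie 1.3.5. The deposited files give FPKM, TPM and per-base coverage for each transcript, and the FPKM of a gene is the sum over its transcripts. Read counts, which the authors tested, were not used here, so the tests run on log2(FPKM + 1), a scale that understates changes of low genes. The deposited ATAC-seq peak lists, called by the authors per sample with MACS2, carry a score for each peak, used only to keep equal numbers of top peaks. Library depth ranged from 29.3 to 37.5 M aligned reads.

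Genes with at least 1 FPKM in at least 2 of 8 mouse libraries (E18.5, P1, P3 and P7, 2 each) were fitted together with limma 3.58.1 in R 4.3.3, and P1 was compared with E18.5. Calls required a Benjamini-Hochberg adjusted p below 0.05 and a fold change that exceeded 1 in size on the log2 scale. An exact permutation test of 2 libraries against 2 cannot give a two-sided p below 0.333 and was not used. Transcript shares were tested with limma on log2 ratios of a transcript to the rest of its gene, in genes with at least 5 FPKM in all 4 libraries, with a change of at least 10 percentage points. In data simulated with normal noise, the gene test recovered 85% and 99% of 100 genes changed by 1.5 and 3 on the log2 scale, with 7 false calls. These genes were drawn from those with a mean log2(FPKM + 1) above 3, so the values do not cover genes at low levels. The share test recovered 10% and 56%, with 6 false calls.

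Genes were named as the 15 largest called rises and the 15 largest falls of protein-coding genes without overlap between ages, the 5 most abundant of each, 5 non-coding genes in each direction, 5 transcripts in each direction, genes the study names beside an expression measurement, and members of 47 lists. The members and lists were chosen with earlier results of these data known. Alternatives were another pseudocount, other filters, TPM, size factors, totals without erythroid genes, limma-voom on reads estimated from coverage, a replicate block, a fit of the 4 libraries alone and each library left out. Totals without erythroid, mitochondria-like and ribosomal RNA-like genes were an alternative chosen after seeing the data. Values of a few list members are not reported here.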

Additional observations from a re-analysis of the deposited data

How the results depend on the processing

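Of 2258 calls, 2232 were also made with a pseudocount of 0.1 (3117 calls in all), 2067 with no filter (2087), 1511 at a mean of at least 5 FPKM (1511), 2090 with TPM (3320), 1962 with median-of-ratios size factors (2200) and 2181 with limma-voom (3270). Higher calls moved from 1411 to 2568 with TPM and 2142 with limma-voom, and lower calls from 847 to 412 at a mean of at least 5 FPKM, where fewer genes were tested. The share of higher calls, 62.5%, became 72.7% at that filter, 77.3% with TPM, 50.7% with median-of-ratios size factors, 59.9% without erythroid genes, 55.8% without erythroid, mitochondria-like and ribosomal RNA-like genes and 65.5% with limma-voom. With each library left out, calls ranged from 2007 to 2599, the share of higher calls from 59.9% to 65.1% and transcript calls from 75 to 115, where the lone library of an age is assumed to vary like the others.

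With the replicate block 2270 genes were called, 2255 of them shared with 2258, but transcript share calls moved from 91 to 21, and to 0 with only the 4 libraries. Deviations of replicate 1 correlated at 0.171 between E18.5 and P1 and at -0.0964 to 0.116 between the other ages, and with 2 numbers the samples share only a number. With equal numbers of top peaks, 48 genes held a promoter peak in both P1 and neither E18.5 library in place of 145, and 1564 the opposite in place of 560. The cause of these moves was not tested.

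Among the genes named, calls were also lost with TPM for Bnip3, Dnajb1, Dpt, Myoz2, Tpi1, Ttn and Xirp1. With no filter they were lost for Acads, Bnip3, Cacna1g, Cox6a2, Cox8b, Dpt, Ereg, Myoz2, Scd2, Ttn and Xirp1, and with median-of-ratios size factors for Ccl2, Csf3, Hcn2, Il6, Mrpl17, Pola1, Scd2 and Vcam1.

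Over the 207 genes named, 2930 of 3085 values under an alternative kept their direction and their side of the threshold, 123 fell below it, 18 passed it anew and 14 turned sign. On the log2 fold change scale, none of the genes that turned sign was called. Atp2a2 was 0.28, and ranged from -0.16 to 0.71 with 1 library left out, with the sign turned without P1 replicate 2. Col3a1 went from 0.11 to -0.026 with median-of-ratios size factors and ranged from -0.17 to 0.40 with 1 library left out, with the sign turned without P1 replicate 2. Cpt1a was 0.21, and ranged from -0.021 to 0.44 with 1 library left out, with the sign turned without P1 replicate 1. Mef2a went from 0.027 to -0.11 with median-of-ratios size factors, -0.0054 without erythroid genes and -0.054 without erythroid, mitochondria-like and ribosomal RNA-like genes and ranged from -0.073 to 0.13 with 1 library left out, with the sign turned without E18.5 replicate 2. Mef2c went from -0.16 to 0.036 with TPM and ranged from -0.35 to 0.033 with 1 library left out, with the sign turned without P1 replicate 1. Mki67 went from -0.075 to 0.16 with TPM and ranged from -0.22 to 0.067 with 1 library left out, with the sign turned without E18.5 replicate 2. Myh6 was 0.50, and ranged from -0.14 to 1.13 with 1 library left out, with the sign turned without P1 replicate 2. Nexn went from -0.21 to 0.028 with TPM.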
